A study of Mus musculus with 6 samples.

Results

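The genes described here are 37 genes of vascular smooth muscle cells and pericytes, the contractile and supporting cells of the vessel wall, measured in whole white adipose tissue. They were listed by gene symbol, and 36 of them had at least 1 probe set that names only that gene, out of 18193 genes so represented on the array. Ednra, an endothelin receptor, was not analysed here. Epididymal white adipose tissue came from 6 mice of the C57BL/6 strain at 8 weeks of age, with 1 Affymetrix array per mouse. The 3 WT mice are labelled wild type and served as controls. The 3 CNOT3KO mice lost Cnot3 through a Cre recombinase driven by the Adiponectin promoter. CNOT3 belongs to the CCR4-NOT complex, which removes poly(A) tails from mRNA. That promoter is active in adipocytes, so the deletion was not directed at the cells of the vessel wall. The labels do not state the sex of the mice, or whether controls carried the Cre or the conditional allele.

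Vascular smooth muscle cells ring arteries and veins and set vessel diameter through filaments of actin and smooth muscle myosin. Pericytes sit on capillaries, share a basement membrane with the endothelium and carry few contractile proteins, so genes of the KATP channel, of G protein signalling and of Notch signalling mark them better than genes of the contractile filament. In both, serum response factor and its cofactors drive the contractile genes by binding a DNA element named the CArG box, and NOTCH3, switched on by the endothelial ligand JAG1, maintains the mural cell state. Several of the listed genes are not exclusive to these cells: Mylk, Flna, Cald1, Csrp1 and Tpm1 are expressed in many cell types, and Aoc3 is also an abundant adipocyte gene.

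The median signal per array lay between 82.1 and 92.9, and the precision of every value below is limited by having 3 arrays per group. Adipoq, the adipocyte hormone gene, read 28794 ± 6538 in WT and 26934 ± 4407 in CNOT3KO (SD, n = 3 each), so this marker of the labelled tissue was bright in both groups. Cnot3 read 305, 293 and 305 in the WT mice and 194, 229 and 179 in the CNOT3KO mice (log2 difference -0.54, SE 0.14, limma adjusted p = 0.0131). Other cells of the fat pad keep the gene, so this fall does not measure the deletion in adipocytes.

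Most of the pericyte genes and part of the contractile genes were lower in the knockout fat pad. Kcnj8, Abcc9 and Rgs5 fell to about 0.4 of the WT level, whereas Cspg4 and Des, which are often used to mark the same cells, rose about 2-fold. Of 36 genes, 32 were bright enough to be tested, 19 fell, 4 rose (Cspg4, Des, Mylk and Tpm1) and 9 did not pass the test. The 19 lower genes are 59.4% of the 32, against 16.9% of all 12769 tested genes that were called lower, and the 4 higher genes are 12.5% against 23.2%. In either direction 40.1% of all tested genes were called. When arrays were set to a common median over the tested genes, the calls over all genes went from 2156 lower and 2959 higher to 2800 and 2318, and those of the listed genes went to 20 lower and 3 higher. The median log2 difference was -0.52 over the 32 genes and 0.02 over all tested genes. In 17 genes all 3 CNOT3KO arrays lay below all 3 WT arrays and in 4 they lay above, where 22.7% and 29.0% of all tested genes did so (51.7% in either direction). Without CNOT3KO mouse 1 the genes that rose numbered 2, Mylk and Des. In bulk tissue fewer cells of a type and less RNA per cell cannot be told apart.

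**Figure D1:**
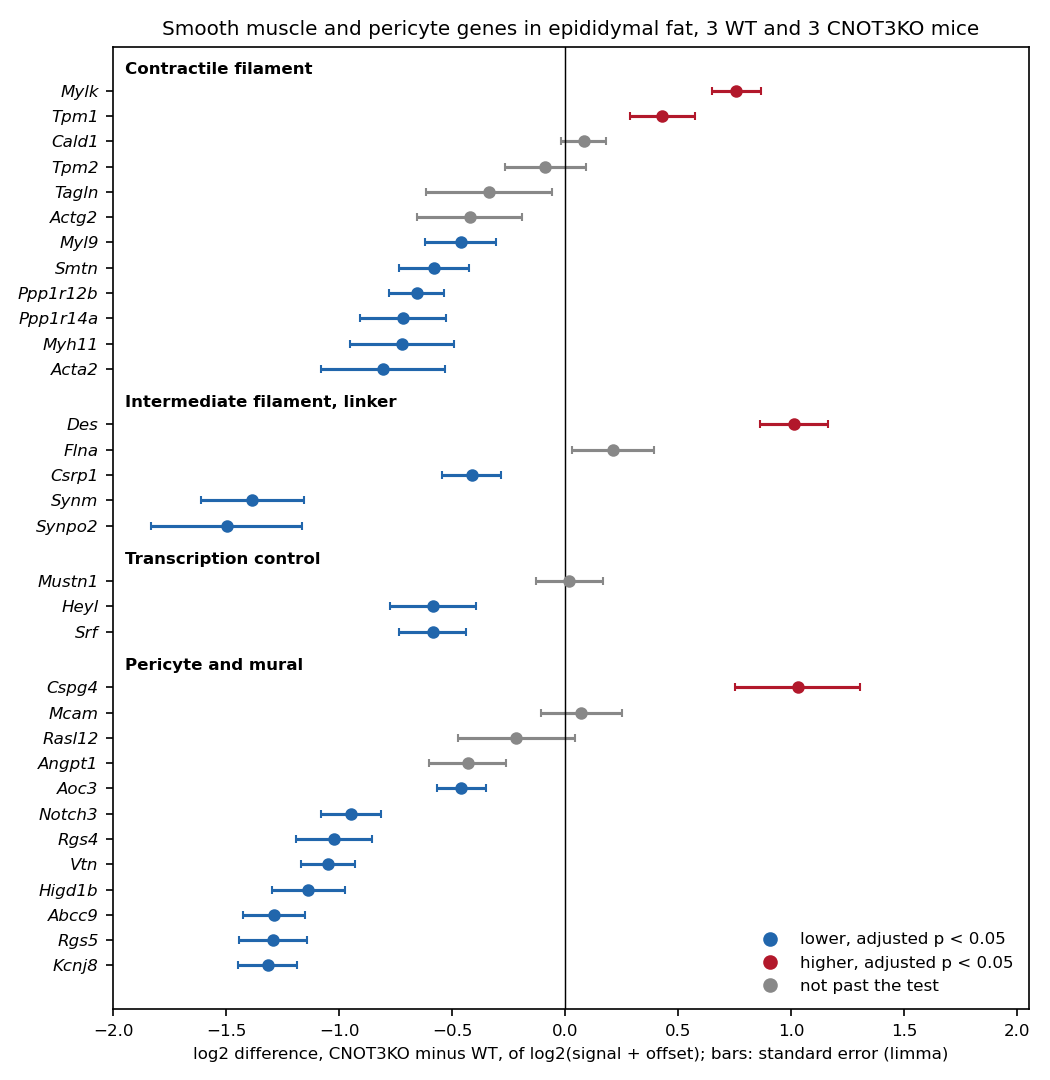
Log2 difference between CNOT3KO and WT (CNOT3KO minus WT, of log2 of signal plus offset) for the 32 tested smooth muscle and pericyte genes, by group, with the standard error from limma; 3 mice per genotype. Blue marks the 19 genes that fell, red the 4 that rose and grey the 9 that did not pass; Kcnj8 at -1.32, Rgs5 and Abcc9 at -1.29 close the pericyte group, and Synpo2 at -1.50 is the lowest of all.

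Among the pericyte and mural signalling genes most fell. Of 12 tested, 8 fell, 1 rose and 3 did not pass, with a median log2 difference of -0.99. The share that fell was 66.7% and the share that rose 8.33%, against 16.9% and 23.2% of all tested genes. Kcnj8 encodes the pore of the vascular KATP channel, which opens when cell energy falls and relaxes the vessel. It read 1045, 915 and 1015 in WT and 327, 420.3 and 411 in CNOT3KO (log2 -1.32, SE 0.13, limma adjusted p = 8.7e-05). Abcc9 encodes SUR2, the regulatory subunit of that channel. Its signal was 1861, 2224 and 1903 in WT and 671, 839 and 916 in CNOT3KO (log2 -1.29, SE 0.14, limma adjusted p = 0.000119). For both subunits the highest CNOT3KO mouse lay below 0.5 of the lowest WT mouse. Kcnj8 and Abcc9 lie next to each other on chromosome 6 with no other protein-coding gene between them in the RefSeq annotation of GRCm38.p6, and their falls were of nearly the same size.

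Rgs5 and Rgs4, which speed the shut-off of G protein signals from contractile receptors, form the other pair of neighbours among the listed genes, on chromosome 1. Rgs5 read 7159.7, 9129 and 11106 in WT and 3528, 3874 and 3572 in CNOT3KO (log2 -1.29, SE 0.15, limma adjusted p = 0.000181). The WT mice spread over a 1.55-fold range while the CNOT3KO mice spread over 1.10-fold, and the groups stayed far apart. Rgs4 went from 186, 250.4 and 237 to 95.3, 98.8 and 101 (log2 -1.02, SE 0.17, limma adjusted p = 0.00119). Its other tested probe set also fell (log2 -0.86, limma adjusted p = 0.00946 over all probe sets).

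Vtn encodes vitronectin, an adhesive matrix protein secreted by pericytes in several tissues. It fell from 678, 625 and 664 to 279.8, 306 and 332 (log2 -1.05, SE 0.12, limma adjusted p = 0.000173). The other Vtn probe set also fell (log2 -1.45, limma adjusted p = 0.000526 over all probe sets). Higd1b, a mitochondrial protein gene used as a pericyte marker, went from 472, 374 and 463 to 152, 209 and 199 (log2 -1.14, SE 0.16, limma adjusted p = 0.000548). Notch3, the mural Notch receptor, went from 886, 840.1 and 789.7 to 413, 497 and 368 (log2 -0.95, SE 0.13, limma adjusted p = 0.000535). All 3 genes had groups that did not overlap. The leading Notch3 probe set has a name ending in _s_at, and the other is much dimmer, at 116 ± 18.3 in WT and 88.0 ± 4.77 in CNOT3KO (SD, n = 3 each), and its log2 difference of -0.31 did not pass. Aoc3, the amine oxidase VAP-1 of smooth muscle and adipocytes, had a smaller fall, from 13659, 16100.1 and 16578 to 10981, 10809 and 11781 (log2 -0.46, SE 0.11, limma adjusted p = 0.00774).

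Cspg4, the NG2 proteoglycan of the pericyte surface, went the other way. It read 1095, 784 and 409.8 in WT and 1530.0, 1440.2 and 1432 in CNOT3KO (log2 1.03, SE 0.28, limma adjusted p = 0.0154). The WT mice differed 2.67-fold among themselves, the widest range of any tested gene on the list, and the CNOT3KO mice only 1.07-fold. The other Cspg4 probe set also rose, from 596, 444 and 332 to 1101, 1279 and 1014 (log2 1.30, SE 0.19, limma adjusted p = 0.000833 over all probe sets). Without CNOT3KO mouse 1 the brighter probe set no longer passed (limma adjusted p = 0.0502).

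Mcam, the adhesion molecule CD146 of mural and endothelial cells, read 2716, 4311 and 3955 in WT and 4275, 3972 and 3166 in CNOT3KO. Its log2 difference of 0.07 (SE 0.18) did not pass, and the groups overlapped throughout. Rasl12, a small GTPase gene with higher expression in mural cells, read 1282, 784 and 558 in WT and 806, 767 and 574 in CNOT3KO, also with full overlap. Angpt1, the mural ligand that steadies endothelium through the receptor TEK, read 975, 1552 and 1411 in WT and 1004, 847 and 1004 in CNOT3KO. The low value of WT mouse 1 lay among the CNOT3KO values, and the log2 difference of -0.43 (SE 0.17, limma adjusted p = 0.0681) did not pass. It passed without WT mouse 1 (log2 -0.63), with array weights (-0.47) and when arrays were set to a common median (-0.53).

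**Figure D2:**
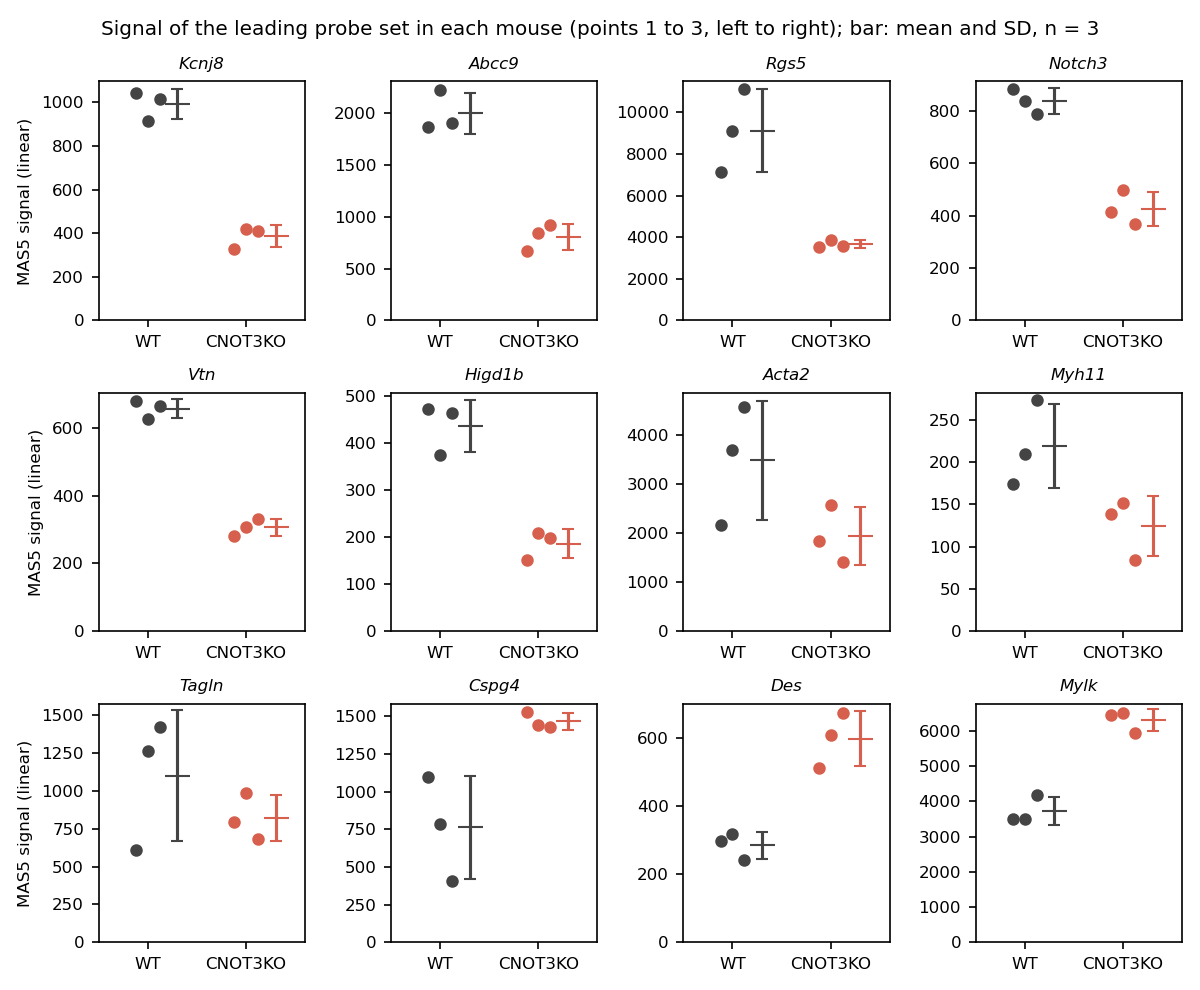
MAS5 signal (linear scale from 0) of the leading probe set in each mouse for 12 of the genes, WT in grey and CNOT3KO in red, with the mean and SD of 3 mice beside the points. The groups of Kcnj8, Abcc9, Rgs5, Notch3, Vtn and Higd1b are apart with CNOT3KO lower, those of Cspg4, Des and Mylk are apart with CNOT3KO higher, and those of Acta2 and Tagln overlap.

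The contractile filament genes fell in part. Of 12 tested, 6 fell, 2 rose and 4 did not pass, with a median log2 difference of -0.44. The genes that fell numbered 2 without WT mouse 2, and 3 without WT mouse 3, CNOT3KO mouse 1 or CNOT3KO mouse 3, and 1 gene rose without WT mouse 1 or 2 or CNOT3KO mouse 1. With no filter or with the mean of all probe sets 3 fell and 1 rose. Acta2, the smooth muscle alpha-actin, read 2179, 3700.1 and 4589.5 in WT and 1851, 2589.6 and 1424 in CNOT3KO (log2 -0.81, SE 0.27, limma adjusted p = 0.0412). WT mouse 1 lay below CNOT3KO mouse 2, so the groups overlapped. The call was lost without WT mouse 2 (log2 -0.73) or 3 (-0.58) and without CNOT3KO mouse 1 (-0.79) or 3 (-0.60), and also with no filter on dim genes, with the mean of all probe sets or without the variance trend. The leading Acta2 probe set has a name ending in _s_at, which on this array marks probes that can bind more than 1 transcript. The other 2 probe sets, at 40.9 ± 18.2 and 23.4 ± 10.5 in WT (SD, n = 3 each), were too dim to be tested.

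Myh11, the smooth muscle myosin heavy chain and the most specific marker of the contractile state, read 174, 209 and 273 in WT and 138, 152 and 84.4 in CNOT3KO (log2 -0.72, SE 0.23, limma adjusted p = 0.0309). The groups did not overlap. The call was lost without WT mouse 2 (-0.74) or 3 (-0.57) and without CNOT3KO mouse 1 (-0.80) or 3 (-0.51), and with no filter or with the mean of both probe sets. Tagln, the actin-binding protein SM22, read 608, 1261 and 1422 in WT and 797, 984 and 679.9 in CNOT3KO. WT mouse 1 was the lowest of all 6 mice, and the log2 difference of -0.34 (SE 0.28) did not pass. Without WT mouse 1 it was -0.71 and passed. Actg2, the enteric actin, showed the same dependence, with 76.8, 152 and 124 in WT, 83.6, 76.9 and 77.5 in CNOT3KO, a log2 difference of -0.42 that did not pass, and -0.65 without WT mouse 1, which passed.

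Genes that tune myosin phosphorylation moved in both directions. Contraction starts when myosin light chain kinase (Mylk) phosphorylates the light chain (Myl9) and ends when myosin phosphatase, with the targeting subunit Ppp1r12b, removes the phosphate, while Ppp1r14a encodes CPI-17, an inhibitor of that phosphatase. Ppp1r12b went from 639, 648 and 595 to 419, 405 and 348 (log2 -0.66, SE 0.12, limma adjusted p = 0.00236), with groups apart. Another Ppp1r12b probe set also fell (log2 -0.60, limma adjusted p = 0.0271 over all probe sets), and a dimmer one gave 0.22, which did not pass. The mean of all its probe sets, with 1 too dim to be tested, gave -0.18, which did not pass. Ppp1r14a went from 111, 159 and 146 to 72.2, 72.9 and 78.9 (log2 -0.72, SE 0.19, limma adjusted p = 0.0138), a call lost without WT mouse 2 (-0.63). Myl9 read 1067, 1427 and 1543 in WT and 917, 1119 and 858 in CNOT3KO (log2 -0.46, SE 0.16, limma adjusted p = 0.0414). WT mouse 1 lay below CNOT3KO mouse 2, and the call was lost without WT mouse 2 (-0.41) or 3 (-0.36), without CNOT3KO mouse 1 (-0.43) or 3 (-0.38), with no filter and without the variance trend.

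Mylk rose, from 3509, 3494 and 4178 to 6457, 6499.6 and 5936 (log2 0.76, SE 0.11, limma adjusted p = 0.00054). A second bright probe set rose as well, from 4242, 3837 and 4389 to 5235, 6132 and 5278 (log2 0.41, limma adjusted p = 0.0156 over all probe sets), and a dimmer one, at 110, 134 and 121 in WT and 197, 111 and 185 in CNOT3KO, did not pass. The gene also gives a long kinase form in other cell types and a short form, telokin, in smooth muscle, and the positions of the probe sets relative to these forms were not analysed here. Smtn, smoothelin, a marker of fully contractile cells, went from 303, 238 and 232 to 168, 153 and 169 (log2 -0.58, SE 0.15, limma adjusted p = 0.0142), and WT mouse 1 was its highest WT value rather than its lowest.

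The tropomyosins, which lie along actin filaments, and caldesmon, which restrains myosin on them, did not fall. Tpm1 read 719, 842 and 941 in WT and 1334, 1029 and 1033 in CNOT3KO (log2 0.43, SE 0.14, limma adjusted p = 0.0386). This call was lost without WT mouse 1 (0.33) or 2 (0.44) or CNOT3KO mouse 1 (0.31), and under several processing choices, a common median of the tested genes (0.33) among them. Another Tpm1 probe set rose further, from 261, 346 and 601 to 795, 774 and 924 (log2 1.08, SE 0.24, limma adjusted p = 0.00752 over all probe sets). A dimmer one read 93.9 ± 16.0 in WT and 75.9 ± 34.1 in CNOT3KO (SD, n = 3 each), and its log2 difference of -0.29 did not pass. The mean of all Tpm1 probe sets did not pass either. Tpm2 read 848 ± 138 and 804 ± 189 (SD, n = 3 each; log2 -0.09, SE 0.18) and did not pass with any of its 3 tested probe sets. Cald1 read 8732 ± 782 and 9221 ± 68.6 (SD, n = 3 each; log2 0.08, SE 0.10), and 1 of its 4 tested probe sets, at 661 ± 48.0 and 841 ± 36.2, was called higher (log2 0.34, limma adjusted p = 0.0422 over all probe sets).

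Cnn1, Lmod1 and Pln were below the brightness limit of a mean signal of 51.6 and were not tested. Cnn1, the smooth muscle calponin, read 52.5 ± 22.0 in WT and 48.7 ± 20.1 in CNOT3KO (SD, n = 3 each). Lmod1, leiomodin, read 52.0, 51.8 and 32.3 in WT and 31.5, 23.6 and 11.9 in CNOT3KO, which put all CNOT3KO mice below all WT mice at signals where MAS5 values are noisy. Pln, phospholamban, the brake on the calcium pump of the sarcoplasmic reticulum, read 56.3 ± 32.1 and 43.2 ± 4.71 (SD, n = 3 each). In the 32 tested genes the mean of each group was above that limit, the lowest being 74.7 for Ppp1r14a in CNOT3KO.

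Among the 5 genes of intermediate filaments and actin linkers, 3 fell, 1 rose and 1 did not pass. With the mean of all probe sets 1 fell and 0 rose, and without CNOT3KO mouse 3 the genes that rose numbered 2. Des encodes desmin, the muscle intermediate filament. It rose from 297, 318 and 242 to 514, 609 and 675 (log2 1.01, SE 0.15, limma adjusted p = 0.000724). Synm encodes synemin, which co-assembles with desmin. It fell from 231, 186 and 285 to 61.6, 106 and 61.8 (log2 -1.38, SE 0.23, limma adjusted p = 0.00124). The second Synm probe set also fell (log2 -0.67, limma adjusted p = 0.0292 over all probe sets). The second Des probe set was too dim to be tested, at 47.9 ± 22.5 and 40.9 ± 23.3 (SD, n = 3 each), and the mean of both gave a log2 difference of 0.42, which did not pass.

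Desmin is also a gene of skeletal muscle, so the markers of that tissue were read beside it. Of 8 skeletal muscle markers, 5 were bright enough to be tested, 0 fell and 1 rose. Their summed signal ranged from 779.9 to 1361 over the WT mice and from 706 to 861 over the CNOT3KO mice. The fast myosins Myh4 and Myh1 and the troponin Tnnt3 read at most 38.9 in any mouse. Acta1, the skeletal actin, read 984, 438 and 985 in WT and 453, 477 and 425 in CNOT3KO (log2 -0.71, limma adjusted p = 0.0579), and passed without WT mouse 2 (-1.09) or with a common median (-0.81). Mb, the myoglobin gene, read 78.9, 24.8 and 22.3 in WT and 110.4, 109 and 75.0 in CNOT3KO (log2 0.99, limma adjusted p = 0.0362), and its groups overlapped. That call ended when WT mouse 2 (0.82) or 3 (0.79), or CNOT3KO mouse 1 (0.92) or 2 (0.93), was left out, and the mean of its probe sets gave 0.15. The WT mean of Mb also lay below the brightness limit of 51.6, so Mb was tested only through its higher CNOT3KO values. Actn3, Ckm and Mylpf, the others bright enough to be tested, did not pass (log2 0.36, -0.33 and -0.33). Actn3 passed without CNOT3KO mouse 3 (0.64) or with array weights (0.62), and Ckm with the mean of its probe sets (-0.55). The part of these markers in the rise of Des was not tested.

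Synpo2, which encodes myopodin, an actin-bundling protein of smooth and skeletal muscle, gave different answers from different probe sets. Its brightest read 983, 1989 and 2312 in WT and 547, 875 and 387 in CNOT3KO (log2 -1.50, SE 0.34, limma adjusted p = 0.0064), the lowest log2 difference of any tested gene on the list. The next read 597, 718 and 894 in WT and 1117, 1235 and 779.5 in CNOT3KO, with a log2 difference of 0.48 that did not pass (limma adjusted p = 0.0776 over all probe sets). The remaining 2 gave -0.23 and 0.20, and the mean of all 4 gave -0.26, neither called nor close to the first.

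Csrp1, a LIM protein of smooth muscle, fell slightly, from 1821, 2095 and 2527 to 1654, 1645 and 1482 (log2 -0.41, SE 0.13, limma adjusted p = 0.0303). Its call was lost without WT mouse 2 (-0.43) or 3 (-0.29) and without CNOT3KO mouse 1 (-0.44) or 3 (-0.36), with the mean of both probe sets (-0.30) and without the variance trend. Flna, filamin A, which cross-links actin in most cells, read 1387, 1691 and 1774 in WT and 1988, 2345 and 1394 in CNOT3KO. CNOT3KO mouse 3 lay with the WT mice, and the log2 difference of 0.21 (SE 0.18) did not pass, although it was 0.42 and passed without that mouse.

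**Figure D3:**
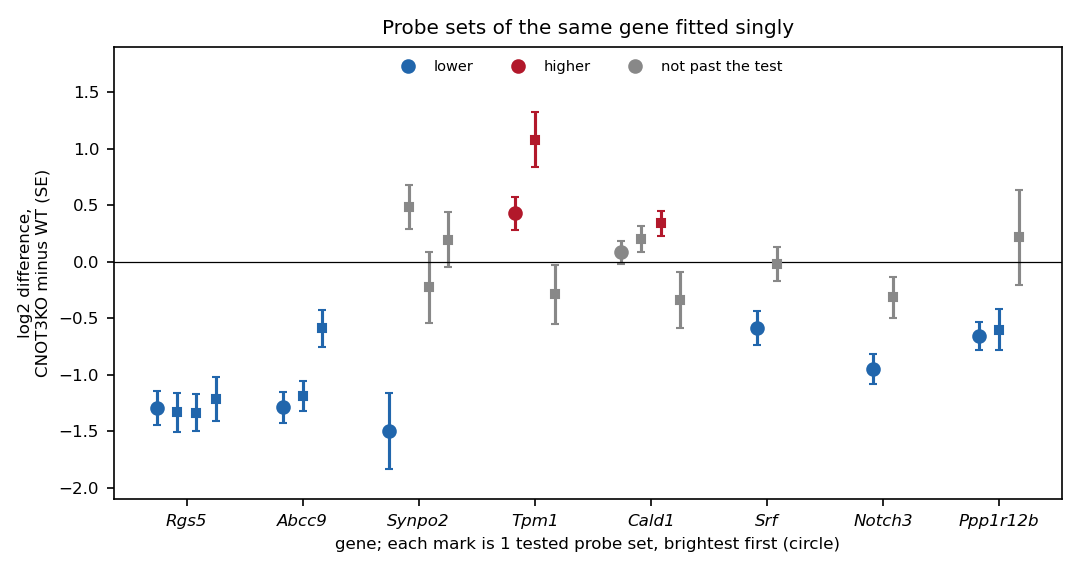
Log2 difference (CNOT3KO minus WT, with the standard error from limma) of every tested probe set of 8 genes, fitted singly, with the brightest as a circle. The 4 probe sets of Rgs5 lie between -1.34 and -1.22 and the 3 of Abcc9 all fell, whereas those of Synpo2 run from -1.50 to 0.48 and the 2 of Srf lie at -0.59 and -0.02.

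Of the transcription regulators, Srf and Heyl fell and Mustn1 did not pass. Srf encodes serum response factor, the factor that binds CArG boxes. It read 369, 478 and 517 in WT and 311, 293 and 274 in CNOT3KO by its brighter probe set (log2 -0.59, SE 0.15, limma adjusted p = 0.0117). The dimmer Srf probe set read 257, 223 and 256 in WT and 244, 274 and 211 in CNOT3KO (log2 -0.02, SE 0.15), so the fall of Srf rests on the brighter one, whose name ends in _s_at, and with the mean of both it was -0.30 and did not pass. Heyl, a Notch target gene of mural cells, went from 207, 154 and 142 to 89.0, 114 and 107 (log2 -0.58, SE 0.19, limma adjusted p = 0.0337). The next Heyl probe set fell more clearly, from 149, 146 and 118 to 59.5, 84.0 and 63.5 (log2 -0.81, SE 0.19, limma adjusted p = 0.00877 over all probe sets). The call of the leading one was lost without WT mouse 1 (-0.44) or 2 (-0.63), without CNOT3KO mouse 1 (-0.50) or 3 (-0.61), with no filter (-0.58), with quantile normalization (-0.49) and with centring on ribosomal protein genes (-0.59). Mustn1, a small nuclear protein gene of muscle, read 573, 651 and 766 in WT and 785, 615 and 615 in CNOT3KO, and the groups overlapped. Myocd, the SRF cofactor that defines smooth muscle, read 28.8 ± 11.8 and 19.8 ± 5.52 (SD, n = 3 each), too dim to be tested.

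Because many of these genes are known SRF targets, their RefSeq promoter windows (GRCm38.p6, 250 bases before to 50 after a gene's start) were searched for the CArG box, 10 bases with CC, 6 inner A or T bases and GG, which reads the same on both strands. Of 29 listed genes with a window, 2 held a match (6.9%), against 1.81% of 27025 genes in the table. These are Srf itself and Myl9. A search chosen after these results were seen, allowing exactly 1 G or C among the 6 inner bases, matched 3 of 29 genes (10.3%), Acta2, Myl9 and Synm, against 9.69% of all genes. Tagln, Myh11, Actg2 and Heyl were among the genes with no window in the table. Every match in the listed genes is shown, 30 bases each on the strand of the gene, with the box in capitals. The genes that hold them were called lower by their leading probe sets, but Srf, Myl9 and Acta2 lost their calls under some alternatives. A part of these boxes in the falls was not tested. All boxes start upstream of the annotated gene start, from 34 bases before it in Acta2 to 239 in Synm.
Srf, 82 bases upstream, chr17:46556225-46556254, minus strand: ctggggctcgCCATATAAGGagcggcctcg
Srf, 62 bases upstream, chr17:46556205-46556234, minus strand: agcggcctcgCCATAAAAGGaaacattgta
Myl9, 161 bases upstream, chr2:156775293-156775322, plus strand: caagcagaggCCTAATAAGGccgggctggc
Myl9, 99 bases upstream, chr2:156775355-156775384, plus strand: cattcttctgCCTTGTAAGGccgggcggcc
Acta2, 84 bases upstream, chr19:34255438-34255467, minus strand: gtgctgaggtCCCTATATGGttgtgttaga
Acta2, 34 bases upstream, chr19:34255388-34255417, minus strand: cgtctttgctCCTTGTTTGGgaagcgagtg
Synm, 239 bases upstream, chr7:67759962-67759991, minus strand: caacggggagCCTCATAAGGtgtcccagat
Both boxes of Srf and the Myl9 box 161 bases upstream meet the full pattern, and the Myl9 box 99 bases upstream and those of Acta2 and Synm have 1 inner C or G. The genes that rose and hold a window, Mylk, Tpm1, Des and Cspg4, had no match of either kind in it. Neither did most of the genes that fell and hold a window, Kcnj8, Abcc9, Rgs5 and Notch3 among them. A window without a match says only that these letters are not in it.

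The WT mice did not keep 1 order across the groups of genes. The ratio of the highest to the lowest WT mouse had a median of 1.40 over the contractile genes and 1.30 over the pericyte and mural genes, a difference that was not tested. WT mouse 1 was the lowest of the WT mice in 8 of the 12 tested contractile genes and the highest in 1, whereas in the 12 pericyte and mural genes it was the lowest in 6 and the highest in 6. Averaged over the contractile genes, the log2 deviation from the WT mean was -0.24, 0.08 and 0.16 in the WT mice. In the CNOT3KO mice it was -0.26, -0.18 and -0.45, so by this average WT mouse 1 lay among the knockout mice. The median over the same genes was -0.23 in WT mouse 1 and -0.44, -0.30 and -0.56 in the CNOT3KO mice. By the median WT mouse 1 lay above every knockout mouse. Averaged over the pericyte and mural genes the log2 deviation was -0.01, 0.05 and -0.05 in WT and -0.71, -0.62 and -0.68 in CNOT3KO. The same averages over all tested genes were at most 0.08 from 0. By these averages CNOT3KO mouse 2 was the highest knockout mouse in the contractile, the intermediate filament and linker, and the pericyte and mural groups.

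**Figure D4:**
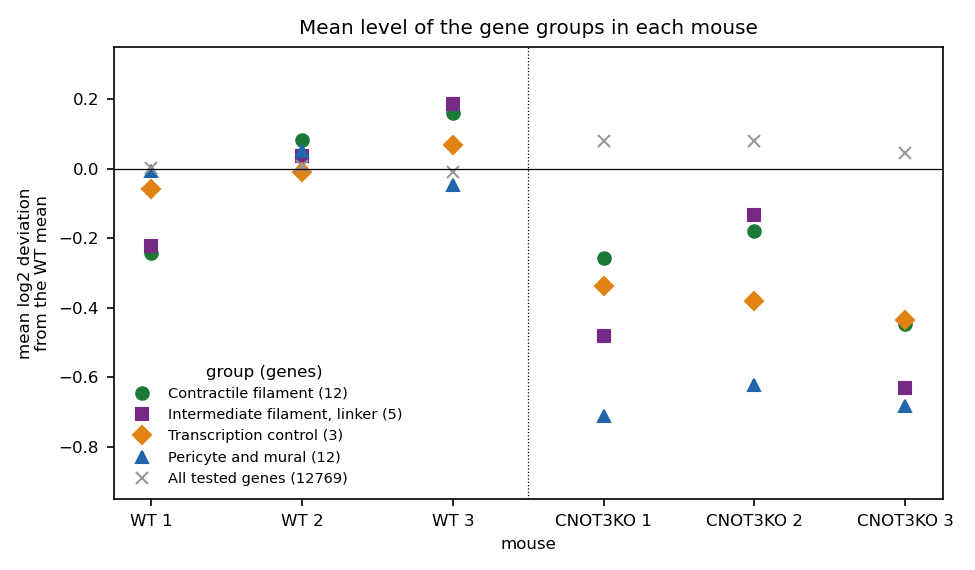
Mean log2 deviation from the WT mean in each of the 6 mice for the 4 groups of listed genes (12, 5, 3 and 12 tested genes) and for all tested genes. The pericyte and mural genes sit near 0 in the WT mice and between -0.71 and -0.62 in the CNOT3KO mice. The contractile mean of WT mouse 1 (-0.24) sits among those of the CNOT3KO mice, although its median (-0.23) lies above theirs.

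Genes that act beside the listed ones were read from lists of related pathways. Of 17 tested genes of the Notch pathway, 9 fell, 1 (Adam17) rose and 7 did not pass, with a median log2 difference of -0.41. The share that fell was 52.9% and the share that rose 5.88%, against 16.9% and 23.2% of all tested genes. Notch4, an endothelial Notch receptor, fell to 0.324 of WT, Nrarp, a feedback inhibitor induced by Notch, to 0.330, and the endothelial ligand Dll4 to 0.399. Jag1, the endothelial ligand of NOTCH3, named here after its values were seen, went from 2598, 3242 and 2912 to 1491, 1688 and 1335 (log2 -0.95, SE 0.12, limma adjusted p = 0.000378). Notch3, Heyl and Jag1 were all lower in the knockout tissue by their leading probe sets, as were all 8 endothelial markers (median log2 -1.14). A link between these falls was not tested. Adam17, a protease gene, was not called without WT mouse 2 or 3 or CNOT3KO mouse 1, under both ways of centring or with the mean of its probe sets.

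Of 18 tested genes of vascular tone, 9 fell, 1 (S1pr3) rose and 8 did not pass, with a median log2 difference of -0.48. Among all tested genes the shares that fell and rose were 16.9% and 23.2%. Npr3, the clearance receptor of natriuretic peptides, fell from 13966 ± 1825 to 4729 ± 513 (SD, n = 3 each; log2 -1.55, limma adjusted p = 3.35e-05). Which cells of the fat pad gave this signal was not tested. Kcna5, a voltage-gated potassium channel, fell to 0.345 of WT, and Cacna1c, the L-type calcium channel that admits calcium for contraction, to 0.430. Cacna1c had a log2 difference of -0.62 that did not pass with the mean of its probe sets, against -1.22, and with that choice the list held 5 lower genes in place of 9. Without WT mouse 1 the genes of vascular tone that rose numbered 2, Ptger3 being the other.

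The RhoA and myosin phosphatase list held 4 lower and 2 higher genes of 20, where 16.9% and 23.2% of all tested genes were called, with a median log2 difference of -0.04. Arhgef12, an activator of RhoA, fell to 0.654 of WT, Myh10, a non-muscle myosin, to 0.699, and Myl12b, its light chain, to 0.744. The call of Myh10 ended when WT mouse 1 or 3 (both -0.46) or CNOT3KO mouse 1 (-0.48) or 2 (-0.42) was left out, and Arhgef12 had a log2 difference of -0.31 that did not pass with probe sets free of the _x_ and _s_ marks. The list held 2 lower genes without WT mouse 1 or CNOT3KO mouse 1 or 2, 0 or 1 higher genes with any 1 mouse left out, and 6 lower and 0 higher with a common median. In the list of SRF cofactors and focal adhesion genes 6 of 25 rose, 2 (Lpp and Parva) fell and the median log2 difference was 0.22, which was 0.11 without WT mouse 1, 0.14 without CNOT3KO mouse 1 and 0.12 with a common median. The genes that rose numbered 4 without CNOT3KO mouse 1 or 2. Palld, an actin scaffold protein, went from 849, 543 and 613 to 2124, 2036 and 2119 (log2 1.64, SE 0.15, limma adjusted p = 6.55e-05), Actn1, a non-muscle alpha-actinin, rose 1.75-fold and Ilk, the integrin-linked kinase, 1.65-fold. Lpp lost its call without WT mouse 2 (-0.34) or CNOT3KO mouse 1 (-0.33), and Parva read 0.24, not past, by a probe set free of the _x_ and _s_ marks.

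Of 27 tested genes of PDGF, angiopoietin and other vessel signals, 12 fell, 5 rose and 10 did not pass, with a median log2 difference of -0.28. The share that fell was 44.4% and the share that rose 18.5%, against 16.9% and 23.2% of all tested genes. The largest changes were rises. Anpep, a peptidase gene of pericytes and myeloid cells, went from 39.3 ± 26.0 to 115 ± 24.3 (SD, n = 3 each; log2 1.22, limma adjusted p = 0.0128), and lost its call without CNOT3KO mouse 1 (1.10), when the list held 3 higher genes. Its WT mean lay below the brightness limit of 51.6, so Anpep was tested only through its higher CNOT3KO values. Angptl4, a secreted lipase inhibitor, read 2.14-fold of WT by its brightest probe set and -0.22 on the log2 scale by a probe set without the _x_ and _s_ marks, so different probe sets gave opposite signs. Tgfb1, the growth factor that drives contractile gene expression, rose 2.08-fold. Pdgfb and Pdgfrb, the endothelial signal that recruits pericytes and its receptor on them, were named after their values were seen. Pdgfb fell from 678, 681 and 680.3 to 417, 387 and 377 (log2 -0.76, SE 0.11, limma adjusted p = 0.000663), and Pdgfrb read 1751, 1927 and 1653 in WT and 1359.6, 2108 and 1207 in CNOT3KO, which did not pass (log2 -0.23, SE 0.19) but did without CNOT3KO mouse 2 (-0.46).

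Markers of several other cell types of the fat pad also changed, some falling and others rising, and their part in the differences was not tested. Over all tested genes 16.9% were called lower and 23.2% higher. All 8 endothelial markers fell (median log2 -1.14; Tie1 not without WT mouse 1 or 2), with a summed signal of 9110.5 to 10505 over the WT mice and 3548 to 4381 over the CNOT3KO mice, and Esam, Cdh5 and Kdr fell to 0.407, 0.339 and 0.246 of WT. The 8 pericyte and mural genes that fell lay between -1.32 and -0.46 on the same log2 scale. All 6 macrophage markers rose (Csf1r not without WT mouse 2 or CNOT3KO mouse 1 or 2), with a summed signal of 18454 to 23980.1 in WT and 36383 to 51369 in CNOT3KO. The brightest, Lyz2, Csf1r and Mrc1, rose 1.94-fold, 1.51-fold and 1.73-fold. Of 6 fibroblast markers 4 rose and 1 (Dpt) fell, with sums of 50385 to 61166 and 60655 to 70436, and Dpt lost its call when WT mouse 2 or 3 or CNOT3KO mouse 1 or 3 was left out. Dcn read 0.960 and Col3a1 1.32 of WT, and Col3a1 did not pass with a common median (log2 0.30). Of 6 adipocyte markers 2 (Lep and Cidec) fell and 4, Adipoq and Lipe among them, did not pass, with sums of 73014 to 93142 and 57994 to 74417. Of 6 mesothelial markers 3 (Upk3b, Msln and Krt18) fell and 3 did not pass, Upk1b among them, with sums of 4136 to 5411 and 2521 to 3888. Upk3b lost its call without WT mouse 2 (log2 -0.68), and Upk1b passed without CNOT3KO mouse 2 (-0.52), with array weights (-0.58) or with a common median (-0.47). Of 4 Schwann cell markers 1 (Sox10) rose and Pmp22, Mbp and S100b did not pass, with sums of 10049 to 11282 and 12122 to 13722, although Sox10 did not pass with the mean of its probe sets (log2 0.40). Mbp passed with that mean (0.49) and by a probe set free of the _x_ and _s_ marks (0.75), and Pmp22 with quantile normalization (0.30) or the stricter filter (0.28). The 3 markers of epididymal epithelium that could be read, Adam7, Lcn5 and Lcn8, were near background in every mouse, with a summed signal of at most 75.5.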

How the data were processed

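The authors deposited linear MAS5 intensity values of 45037 probe sets, per the submitters' processing notes. No source used here gives the MAS5 version, settings or scaling target. MAS5 subtracts mismatch signal, so dim values are noisy on a log scale. Titles gave each array's genotype and mouse.

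Probe sets were named from the platform annotation, and 34945 carried 1 gene symbol. Each of 18193 genes was represented by its probe set of highest mean signal. The 12769 genes with a mean above 51.6, the 40th percentile, were tested with limma 3.58.1 (R 4.3.3; lmFit, eBayes with a variance trend, two-sided) on log2(signal + 22.5). The added constant was the 25th percentile of the values. P-values were Benjamini-Hochberg adjusted over all tested genes and called under 0.05. Folds are on that scale and understate changes of dim genes. A second fit, chosen after seeing the data, covered every named probe set above the limit (22861). The test was also run on simulated arrays with independent normal noise and few changed genes. That setting is simpler than these data, so it does not show how the test behaves here. Tables and figures used Python 3.11.15, numpy 2.4.6, pandas 2.3.3 and matplotlib 3.10.9.

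All listed genes are named, with Cnot3, the 3 called genes of largest change from each related list, and the 3 brightest markers of each other cell type (all markers in lists with up to 5 tested). Other genes were named after their values were seen. The genes and lists were chosen with earlier results of these data known. Protein sequences and probe positions were not used here. Alternatives covered the offset, filter, normalization, probe set choice, variance model, array weights, a block for mouse number, the threshold and each array left out.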

Additional observations from a re-analysis of the deposited data

How the results depend on the processing

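The fall of the listed genes as a group did not turn direction under any of the alternatives run: their median log2 difference stayed between -0.64 and -0.43, and the number of lower genes was 13 to 21 with each array left out in turn, against 19. At an adjusted p under 0.01 there were 11 lower and 2 higher genes of 32, beside 1249 lower and 1895 higher of all 12769 tested genes. With the mean of all probe sets 13 were lower and 2 higher, beside 1911 lower and 2456 higher of all 12769 tested genes. With each array left out 2 to 5 of the listed genes were higher, against 4. Of the 19 lower genes, 8 (Kcnj8, Abcc9, Rgs4, Rgs5, Vtn, Higd1b, Aoc3 and Synm) kept their call in every alternative that tested them, as did Mylk of the 4 higher genes, and 0 calls changed sign. Fitting every probe set singly, added after seeing the data, gave 19 genes with a lower and 5 with a higher probe set. With the mouse number as a replicate block 17 genes were lower and 3 higher, without the calls of Myh11, Heyl and Tpm1. Deviations of same-numbered mice correlated at 0.07, 0.11 and 0.04, and each mouse correlated best with its own number, a hint from the data and not the design, as the labels tie no number to a litter or day. Dim genes (Cnn1, Lmod1, Myocd and Pln) cannot be judged at this signal.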
